A study of Mus musculus with 56 samples.

Results

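Hearts of mice fed only by day and hearts of mice fed only by night were compared at the hour when each animal was about to be fed, which is the end of the daily fast in both. The comparison takes the 4 libraries of daytime-restricted feeding (DRF) at zeitgeber time 0 (ZT0, lights on) and the 4 libraries of nighttime-restricted feeding (NRF, the reference regimen) at ZT12 (lights off), 8 of the 56 heart libraries in the series. All mice were adult C57BL/6J females, an inbred laboratory strain, and were 9 weeks old. They were housed in groups from 7 weeks of age with lights on for 12 h and off for 12 h a day and with free access to chow for 7 days, and food was then offered in the light phase alone (DRF) or in the dark phase alone (NRF) for 7 days. Neither group carried a transgene or received a drug. PolyA RNA of whole heart was sequenced at 7 zeitgeber times, every 4 h from ZT0 to ZT24. The labels number 4 replicates per group without stating that each is a separate animal, so p-values measure only the spread between these libraries. The pair matches the distance from the next meal. Light phase, clock time and regimen all differ between the groups and cannot be told apart within it. The fast itself ran through the dark phase in DRF and the light phase in NRF, so it is matched in hours alone.

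The circadian clock of a cell is a feedback loop in which the activators BMAL1 (gene Arntl), CLOCK and NPAS2 bind E-box sequences and drive the genes of their own repressors, the PER and CRY proteins. A second loop runs through REV-ERB (Nr1d1, Nr1d2) and ROR proteins, which act on Arntl, and a set of PAR bZIP factors (Dbp, Tef, Hlf) carries the rhythm to output genes through D-box sequences. Light sets this clock through the brain and meals set it in many peripheral organs. The heart burns mainly fatty acids, and fasting raises genes that favour fat over glucose as fuel.

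Promoter sequences show where the loop's own motifs lie in the clock genes compared here. RefSeq promoter windows (250 bases before to 50 bases after a start site, build GRCm38.p6) were found for 16 of the 18 clock genes. The E-box letters CACGTG, read on both strands, were present in 5 of the 16 genes (31.2%, against 8.09% of the 27025 gene symbols in the table and 11.6% of the tested genes with a window). The D-box letters TTATGTAA, TTACATAA or TTACGTAA were present in 1 gene (6.25%, against 1.23% of all symbols and 0.858% of tested genes with a window). The nuclear receptor site AGGTCA was present in 5 genes (31.2%, against 18.1% of all symbols and 15.0% of tested genes with a window). In the windows printed here no match overlapped another. Of these windows 5 are shown, each from a gene whose level differed between the groups. The first 4 are repressors that were lower in DRF ZT0 and the last is Arntl, which was higher, with the motif letters in capitals. Arntl has another window, not shown, that held no match. They run 5′ to 3′ on the strand of the gene.
Ciart, chr3:95882179-95882478, minus strand, E-box, first match at -116 from the start site: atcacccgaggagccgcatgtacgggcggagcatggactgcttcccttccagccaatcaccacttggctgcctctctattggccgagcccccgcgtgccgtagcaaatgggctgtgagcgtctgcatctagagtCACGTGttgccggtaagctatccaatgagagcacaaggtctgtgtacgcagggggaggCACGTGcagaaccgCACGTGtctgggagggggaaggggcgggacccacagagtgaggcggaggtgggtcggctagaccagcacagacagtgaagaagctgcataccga
Cry1, chr10:85185005-85185304, minus strand, E-box at -60: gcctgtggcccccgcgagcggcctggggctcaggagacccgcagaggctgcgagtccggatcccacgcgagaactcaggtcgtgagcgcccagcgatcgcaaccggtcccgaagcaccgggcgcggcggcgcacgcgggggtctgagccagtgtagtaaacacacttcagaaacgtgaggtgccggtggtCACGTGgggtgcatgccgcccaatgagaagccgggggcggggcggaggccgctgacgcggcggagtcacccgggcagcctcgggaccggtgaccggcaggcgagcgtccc
Bhlhe41, chr6:145865371-145865670, minus strand, E-box at -153: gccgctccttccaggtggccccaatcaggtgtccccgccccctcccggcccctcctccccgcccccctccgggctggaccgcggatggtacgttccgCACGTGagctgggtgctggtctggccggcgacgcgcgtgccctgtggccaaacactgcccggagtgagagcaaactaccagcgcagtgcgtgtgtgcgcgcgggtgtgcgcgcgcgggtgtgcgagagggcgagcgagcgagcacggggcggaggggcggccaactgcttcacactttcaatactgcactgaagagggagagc
Per3, chr4:151044616-151044915, minus strand, D-box, matches at -205 and -158: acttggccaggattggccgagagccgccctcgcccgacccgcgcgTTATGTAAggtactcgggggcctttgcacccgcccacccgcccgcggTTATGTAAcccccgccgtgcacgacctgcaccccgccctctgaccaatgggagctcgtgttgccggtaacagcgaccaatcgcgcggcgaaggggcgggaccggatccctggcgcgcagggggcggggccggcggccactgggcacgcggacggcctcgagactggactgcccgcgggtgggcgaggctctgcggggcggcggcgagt
Arntl, chr7:113207261-113207560, plus strand, nuclear receptor site at 32: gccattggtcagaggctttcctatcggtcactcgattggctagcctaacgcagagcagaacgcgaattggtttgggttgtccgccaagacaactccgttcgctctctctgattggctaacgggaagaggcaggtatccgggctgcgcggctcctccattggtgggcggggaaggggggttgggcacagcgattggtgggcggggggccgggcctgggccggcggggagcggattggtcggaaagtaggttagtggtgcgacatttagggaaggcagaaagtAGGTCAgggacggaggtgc
A match is a description of letters in a window and says nothing about binding in these hearts.

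Levels are TPM (a gene's reads per exon length as a share of its library) recomputed from whole reads recovered from the deposited values, and differences are on the log2(TPM + 1) scale, which understates the change of genes near 1 TPM. The 8 libraries held 29.5 to 42.4 M recovered reads (M, 1e6), within the 29.5 to 53.4 M of all 56. Mitochondrially encoded genes took 18.4 to 22.6% of the reads. Cardiomyocyte markers summed to 27616 to 30682 TPM in DRF ZT0 and 28551 to 31009 TPM in NRF ZT12. Of 17 library measures (depth, composition and 14 cell type marker lists), the atrial marker sum alone separated the groups completely, at 2318 to 5528 TPM in DRF ZT0 against 218 to 1690 TPM in NRF ZT12 (exact permutation test, two-sided, p = 0.0286, the smallest 4 against 4 allows, adjusted p = 0.486 over the 17 measures). Macrophage and leukocyte markers summed to 544 to 813 TPM in DRF ZT0 against 789 to 947 TPM (exact permutation test, two-sided, p = 0.0857, adjusted p = 0.486). Beside Nppa of the atrial list, 2 single markers were called by limma, Cd68 of the macrophage list (-0.66, adjusted p = 0.0126) and Kdr of the endothelial list (0.42, adjusted p = 0.0214), and their part in other results was not tested. Red blood cell markers varied within groups, from 3672 to 22097 TPM in DRF ZT0 and from 2186 to 42657 TPM in NRF ZT12. Markers of lymphocytes, skeletal muscle and lung stayed at or under 18.1 TPM in sum in every one of the 8 libraries.

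Of 13869 genes tested, 868 (6.26%) differed between the groups at an adjusted p under 0.05, and 2791 had an unadjusted p under 0.05. Genes higher in DRF ZT0 numbered 302 (2.18% of those tested) and genes lower numbered 566 (4.08%), so 34.8% of the calls were higher. The split depended on the scaling. After rescaling each library by the median of its gene ratios 1286 genes were called and 47.2% of them were higher. The median difference over all genes tested was -0.04. Calls were mostly modest in size, with a median absolute log2 difference of 0.45, and 76 of them reached 1, of which 38 were higher and 38 lower. In 754 of the 868 called genes the 4 libraries of one group all lay above the 4 of the other, against 13.5% of all genes tested. The number of calls was 523 without DRF ZT0 replicate 4 and 564 without NRF ZT12 replicate 3. With the atrial marker level as a covariate, chosen after seeing the data, 885 genes were called, 627 of them shared with the 868.

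Clock genes differed widely between the groups, although every animal was at the same point of its feeding cycle. Of 18 clock genes 17 passed the test (6.26% of all genes tested did), 4 higher and 13 lower in DRF ZT0 (2.18% and 4.08% over all genes), with differences from -3.43 to 2.68 and a median of -1.05 (-0.04 over all genes). All 3 activators rose relative to NRF ZT12, 9 of 10 repressors fell, and of 5 output and related factors 4 fell and 1 rose. With the atrial covariate 16 of the 18 were called.

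**Figure D1:**
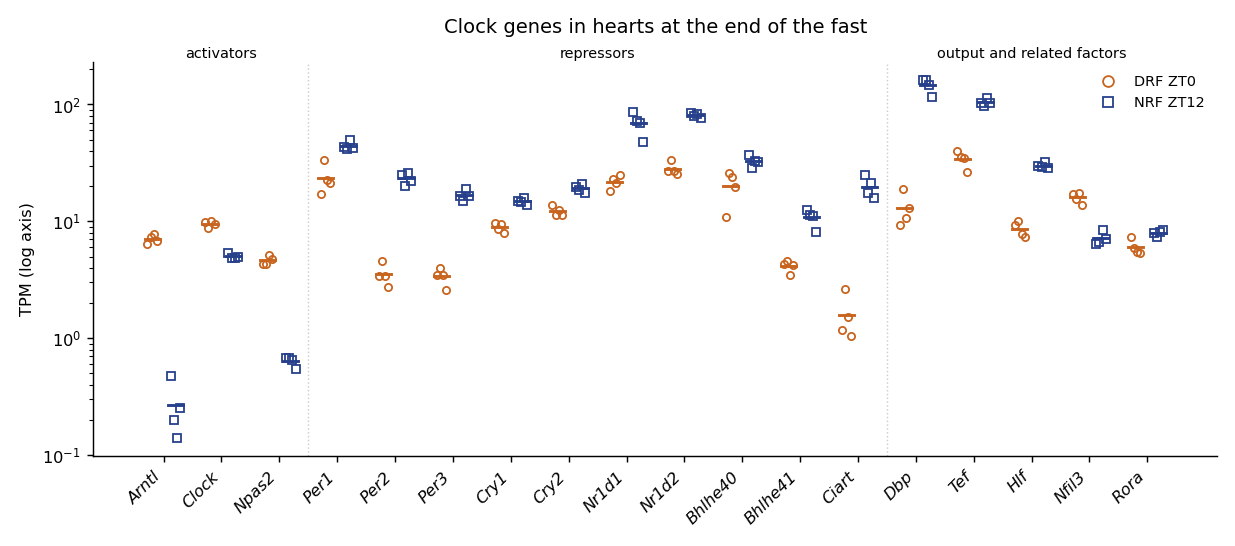
TPM of the 18 clock genes in each of the 8 libraries on a log axis, with DRF ZT0 as circles, NRF ZT12 as squares and bars at the group means. The activators Arntl, Clock and Npas2 sit higher in DRF ZT0, and all 10 repressors and Dbp, Tef and Hlf sit lower. The groups do not overlap in 17 of the 18 genes (Per1, not called, among them), against 13.5% of all genes tested.

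Arntl, which encodes BMAL1, read 6.45, 7.36, 7.86 and 6.74 TPM in the 4 DRF ZT0 libraries and 0.477, 0.201, 0.139 and 0.253 TPM in the 4 NRF ZT12 libraries. All DRF ZT0 hearts were thus far above all NRF ZT12 hearts, with a 26.5-fold ratio of mean TPM and a log2 difference of 2.68 ± 0.23 (SE, adjusted p = 2.86e-11). NRF ZT12 held the lowest of the 14 group means for Arntl, while DRF ZT0 ranked 5 of 14 from the top. Npas2, a partner that can stand in for CLOCK, read 4.31, 4.36, 5.10 and 4.73 TPM against 0.672, 0.674, 0.654 and 0.549 TPM (1.78 ± 0.18, adjusted p = 4.81e-10). Clock itself moved least of the activators, from 4.82 to 5.35 TPM in NRF ZT12 to between 8.75 and 10.01 TPM in DRF ZT0 (0.81 ± 0.09, adjusted p = 2.10e-08).

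Among the repressors, the period genes Per2 and Per3 were several-fold lower in DRF ZT0. Per2 read 3.43, 4.61, 3.42 and 2.77 TPM in DRF ZT0 against 25.02, 19.998, 25.7 and 22.4 TPM in NRF ZT12 (-2.42 ± 0.24, adjusted p = 4.81e-10). Per3, the promoter of which holds the D-box pair printed earlier, read 3.45, 4.03, 3.47 and 2.56 TPM against 16.4, 14.9, 18.9 and 16.5 TPM (-2.02 ± 0.18, adjusted p = 5.07e-11). Per1, the period gene most open to acute signals, did not pass the test. It read 17.3, 33.4, 22.5 and 21.3 TPM against 43.0, 41.9, 49.8 and 42.6 TPM, groups that do not overlap, with a difference of -0.92 and a 95% interval from -1.65 to -0.19 (adjusted p = 0.126). Fitted on the 8 libraries alone it passed (adjusted p = 0.0127). The cryptochromes, partners of the PER proteins, were lower by less. Cry1 read 8.01 to 9.69 TPM against 13.8 to 15.8 TPM (-0.67 ± 0.16, adjusted p = 0.00455) and Cry2 11.4 to 13.8 TPM against 17.5 to 21 TPM (-0.61 ± 0.11, adjusted p = 9.71e-05).

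The REV-ERB genes, nuclear receptors that repress Arntl, were also lower while Arntl was higher. Nr1d1 read 18.01, 22.9, 21.1 and 25.04 TPM in DRF ZT0 and 85.4, 72.9, 69.2 and 47.7 TPM in NRF ZT12 (-1.60 ± 0.27, adjusted p = 8.17e-05). Its exons overlap those of Thra on the other strand, and the use of strand in counting is not stated, so reads of the 2 cannot be told apart there. Nr1d2 read 25.5 to 33.3 TPM against 76.0 to 84.6 TPM (-1.49 ± 0.19, adjusted p = 1.84e-07). Ciart, a repressor of the CLOCK and BMAL1 pair whose promoter window holds 3 E-boxes, read 1.17, 2.63, 1.53 and 1.04 TPM against 24.7, 17.5, 21.1 and 15.97 TPM. This was the largest fall among the repressors, 12.5-fold by mean TPM (-3.03 ± 0.36, adjusted p = 5.07e-08). The DEC repressors, which compete for E-boxes, differed in how firmly they were called. Bhlhe41 read 3.48 to 4.61 TPM against 8.17 to 12.6 TPM (-1.19 ± 0.14, adjusted p = 8.46e-08). Bhlhe40 ranged from 10.99 to 25.9 TPM in DRF ZT0 against 28.4 to 36.9 TPM (-0.73 ± 0.22, adjusted p = 0.0381), and its call was lost without DRF ZT0 replicate 1 or 4 or NRF ZT12 replicate 1, 3 or 4, with adjusted p from 0.0609 to 0.252, with no filter (0.0555) and in the fit of the 8 libraries (0.0878).

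The output factor Dbp showed the largest difference of the clock genes on the log2(TPM + 1) scale, while by mean TPM Arntl and Ciart were further apart. It read 9.25, 18.8, 10.7 and 12.97 TPM in DRF ZT0 and 160, 162, 145 and 115 TPM in NRF ZT12, 11.3-fold apart by mean TPM (-3.43 ± 0.42, adjusted p = 1.37e-07). Dbp exons overlap Sphk2 on the other strand, and further named genes with such an overlap, Arntl among them, are listed with the processing. Its relatives followed, with Tef at 26.4 to 40.0 TPM against 96.1 to 114 TPM (-1.59 ± 0.16, adjusted p = 5.01e-10) and Hlf at 7.42 to 10.1 TPM against 28.5 to 32.1 TPM (-1.68 ± 0.15, adjusted p = 2.86e-11). Nfil3, which represses from the same D-boxes, was higher in DRF ZT0, at 17.2, 15.5, 17.6 and 13.7 TPM against 6.41, 6.64, 8.38 and 7.13 TPM (1.06 ± 0.25, adjusted p = 0.00415). Rora, an activator of Arntl, was slightly lower (-0.35 ± 0.10, adjusted p = 0.0247) with overlapping groups, and its call was lost without DRF ZT0 replicate 2, 3 or 4 or NRF ZT12 replicate 1, 3 or 4 (adjusted p 0.0531 to 0.113), with TPM over nuclear genes (0.0595), in the fit of the 8 libraries (0.0588) and with the atrial covariate (0.0506). Wee1, a cell cycle kinase gene driven by the clock, fell from between 24.5 and 27.1 TPM to between 6.88 and 10.4 TPM (-1.48 ± 0.16, adjusted p = 5.89e-09).

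Some genes of fasting and fatty acid oxidation differed although both groups had reached the end of the fast. Of 28 genes 5 rose (17.9%, against 2.18% of all genes called higher), 0 fell, and the median difference was 0.19 (-0.04 over all genes). At an unadjusted p under 0.05 stood 14 of the 28 (50%, against 20.1% of all genes). Pdk4, the kinase that shuts pyruvate out of the mitochondrial fuel supply, read 903, 389, 420 and 804 TPM in DRF ZT0 against 158, 137, 153 and 67.9 TPM in NRF ZT12. The lowest DRF ZT0 heart was above the highest NRF ZT12 heart by more than the range of the latter group (2.25 ± 0.46, adjusted p = 0.000933). Acot1, a cytosolic acyl-CoA thioesterase, read 32.4, 27.0, 18.5 and 35.1 TPM against 17.02, 5.90, 9.72 and 4.96 TPM (1.59 ± 0.27, adjusted p = 6.33e-05), and close copies of it in the genome could share its reads. Plin5, which encodes a coat protein of lipid droplets, read 143 to 175 TPM against 79.9 to 130 TPM (0.68 ± 0.14, adjusted p = 0.00132), and DRF ZT0 held the highest of its 14 group means. The other 2 were Mlycd, which removes the malonyl-CoA brake on fat entry (0.53), and Cd36, a fatty acid importer (0.44). Angptl4, a secreted inhibitor of lipoprotein lipase, read 7.91 to 33.7 TPM against 1.70 to 7.10 TPM and missed the threshold (1.74, adjusted p = 0.0605). Acadl (0.07), Hadha (0.08) and Hadhb (0.10), which encode enzymes of the oxidation spiral and were picked from the list after their values were seen, were not called.

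Other lipid genes gave single calls in opposite directions. Of 16 lipogenesis genes 1 rose and 1 fell (12.5% called, against 6.26% of all genes). Scd4, a stearoyl-CoA desaturase of the heart with close relatives in the genome, read 24.4, 20.3, 17.3 and 29.1 TPM in DRF ZT0 against 11.3, 4.79, 5.28 and 2.21 TPM (1.92 ± 0.32, adjusted p = 5.98e-05). Dgat2, which makes triglyceride, fell from between 384 and 419 TPM to between 247 and 319 TPM (-0.56 ± 0.11, adjusted p = 0.00108). Of the 17 genes tested for cholesterol synthesis and uptake limma called 0, with 2 at an unadjusted p under 0.05, 1 called by limma voom on the recovered reads and differences from -0.21 to 0.22. Both named genes of ketone body use were lower. Bdh1, the enzyme that starts ketone breakdown, read 19.8, 13.3, 28.1 and 23.3 TPM against 42.5, 54.3, 44.4 and 34.5 TPM (-1.05 ± 0.27, adjusted p = 0.00999), a call lost without DRF ZT0 replicate 2 (adjusted p = 0.0682) and with the atrial covariate (-0.85, adjusted p = 0.0620). Oxct1, the next enzyme, read 480 to 504 TPM against 637 to 670 TPM (-0.40 ± 0.08, adjusted p = 0.00137). These and the taurine transporter gene Slc6a6 (35.6 to 48.7 TPM against 57.6 to 72.3 TPM, -0.58) were the 3 calls among 14 genes of taurine, ketone and branched-chain amino acid metabolism, all lower (21.4%, against 4.08% of all genes called lower).

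In the glucose list 1 of 16 genes was called (6.25%, a share close to the 6.26% of all genes). It was Hk2, the insulin-responsive hexokinase, which read 68.5 to 75.3 TPM in DRF ZT0 against 86.8 to 106 TPM (-0.44 ± 0.10, adjusted p = 0.00326). Insulin and FOXO response genes gave 3 falls and 0 rises among 18 (16.7% called). These were Pik3ip1, an inhibitor of PI3 kinase (22.7 to 28.7 TPM against 35.2 to 49.1 TPM, -0.73), Foxo3 (-0.48) and the stress gene Sesn1 (-0.44). The Foxo3 call was lost without DRF ZT0 replicate 1 or 4 or NRF ZT12 replicate 1 or 3 (adjusted p 0.0536 to 0.0634). In the glucocorticoid list 1 of 13 genes rose and 3 fell (30.8% called, against 6.26% of all genes). The list median was -0.44 (-0.04 over all genes), and 61.5% of the list had an unadjusted p under 0.05 (20.1% of all genes). Cdkn1a, a cell cycle inhibitor, rose from between 14.5 and 17.7 TPM to between 31.9 and 48.8 TPM (1.41 ± 0.20, adjusted p = 2.95e-06), the highest of the 14 group means. Zbtb16, a hormone-induced zinc finger gene, read 15.3 to 32.0 TPM against 38.7 to 65.2 TPM (-1.18, adjusted p = 0.0494), and only NRF ZT12 replicate 2 could be left out without losing the call (0.0502 to 0.133 otherwise). With all libraries the Zbtb16 call was also lost under median-of-ratios rescaling, TPM over nuclear genes, a pseudocount of 0.1, no filter, the deposited values and the atrial covariate (adjusted p 0.0588 to 0.0704). Map3k6 (-0.70) lost its call without DRF ZT0 replicate 1 or 4 or NRF ZT12 replicate 1 or 3 (0.0528 to 0.0946), and the third fall was Tsc22d3 (-0.66, adjusted p = 0.0404). Fkbp5, a standard glucocorticoid target, was not called (-0.66, adjusted p = 0.121).

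**Figure D2:**
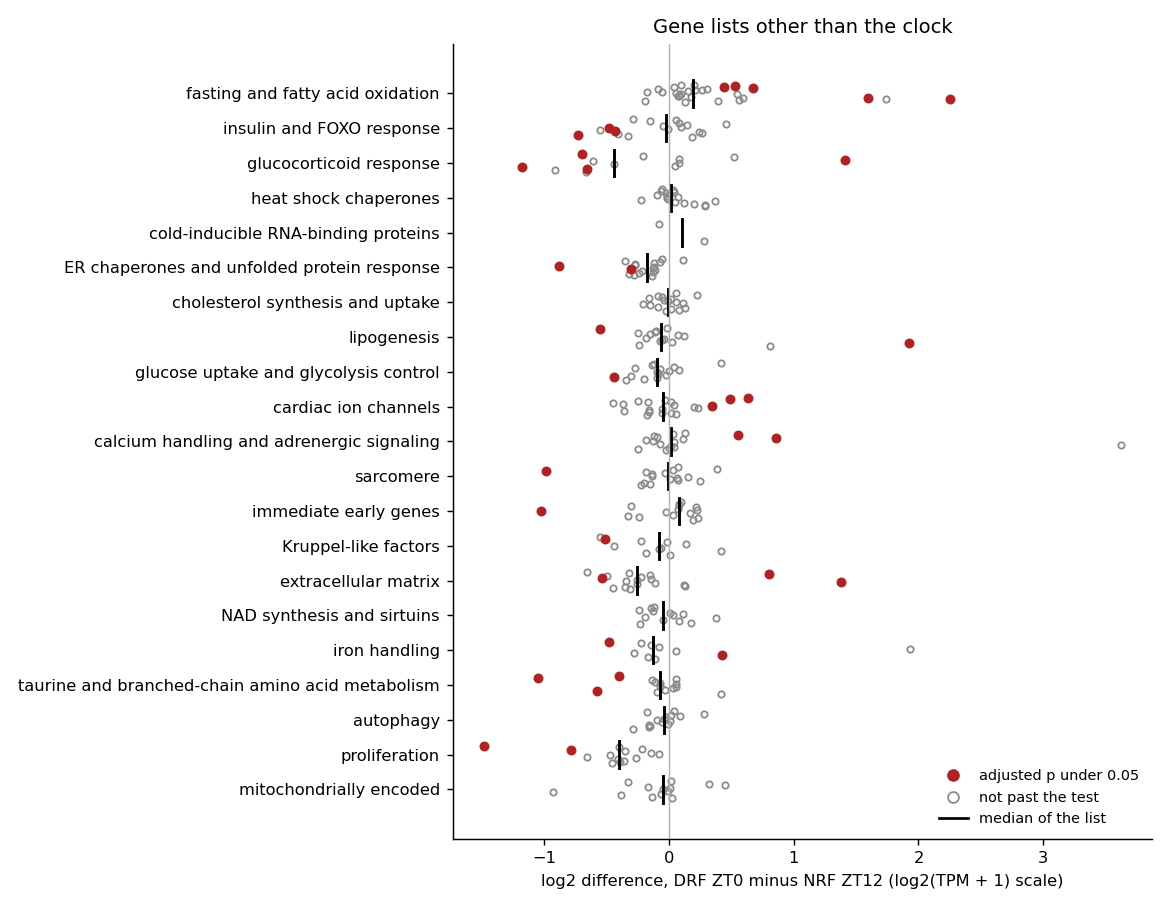
Log2 difference (DRF ZT0 minus NRF ZT12) of every tested member of 21 gene lists other than the clock, with called genes filled in red, other genes as open circles and list medians as black bars. Calls are scattered over most lists, the fasting list is the one with 5 rises and no fall, and the uncalled gene near 3.62 is Sln, an atrial gene.

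Genes of the contractile and electrical machinery gave a few calls. At an unadjusted p under 0.05 stood 6 of 16 sarcomere genes (37.5%), 7 of 20 ion channel genes (35%) and 4 of 17 calcium genes (23.5%), against 20.1% of all genes tested. Of the sarcomere genes 1 fell (6.25%, against 6.26% of all genes called), Tcap, which encodes the titin cap protein telethonin. It read 2311, 2876, 2597 and 2593 TPM in DRF ZT0 against 5550, 5132, 5089 and 4742 TPM (-0.99 ± 0.23, adjusted p = 0.00471), with NRF ZT12 the highest of the 14 group means. Of the 20 ion channel and connexin genes 3 rose (15%). Gja1, the main ventricular connexin, read 86.5 to 96.4 TPM against 59.0 to 74.6 TPM (0.49, adjusted p = 0.0147; 0.0619 without NRF ZT12 replicate 1), and Kcnk3, a background potassium channel, 125 to 144 TPM against 99.0 to 116 TPM (0.34, adjusted p = 0.00112). Gja5, a connexin of atria and conduction tissue, had overlapping groups (6.31 to 13.1 TPM against 4.65 to 6.53 TPM, 0.63, adjusted p = 0.0395) and lost its call without DRF ZT0 replicate 2 or 3 or NRF ZT12 replicate 1, 3 or 4 (0.0702 to 0.18), with no filter (0.0579) and in the fit of the 8 libraries (0.106). Of the 17 calcium and adrenergic genes 2 rose (11.8%). Adra1b, an alpha adrenergic receptor, read 37.7 to 41.9 TPM against 19.5 to 24.4 TPM (0.86 ± 0.13, adjusted p = 6.52e-06), and Pde3a, a cyclic nucleotide phosphodiesterase, 18.5 to 22.0 TPM against 13.1 to 14.8 TPM (0.55 ± 0.10, adjusted p = 0.000302).

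Matrix genes gave 2 rises and 1 fall among 18 (16.7% called, against 6.26% of all genes), with a list median of -0.26. Col5a3, a minor fibrillar collagen chain, read 15.8, 21.1, 20.1 and 19.9 TPM against 7.69, 7.53, 6.44 and 5.46 TPM (1.38 ± 0.17, adjusted p = 1.10e-07). The collagen crosslinking enzyme gene Lox rose (0.80, adjusted p = 0.000169), while Col8a1 fell by 0.54 (adjusted p = 0.0483). Of the 8 fits that left out 1 library, the Col8a1 call held in the one without DRF ZT0 replicate 3 and was lost in the others (0.0570 to 0.138). With all libraries it was lost with a pseudocount of 0.1 (0.0526), with the replicate block (0.0556), with no filter on low values (0.0687) and with the atrial covariate (0.187). The most abundant collagens were not called (Col1a1 -0.31, Col3a1 -0.35). Iron genes gave 1 rise, the iron exporter gene Slc40a1 (0.43, adjusted p = 0.0144; 0.0555 without DRF ZT0 replicate 1 and 0.0521 without NRF ZT12 replicate 4), and 1 fall, the ferrireductase gene Steap3 (-0.48), among 10 (20% called). In the endoplasmic reticulum list 2 of 18 genes fell (11.1%), Herpud1 (122 to 151 TPM against 248 to 281 TPM, -0.89, adjusted p = 6.76e-06) and the chaperone gene Dnajb9 (-0.30, adjusted p = 0.0189; 0.0566 to 0.0827 without DRF ZT0 replicate 4 or NRF ZT12 replicate 1 or 3, 0.0597 after median-of-ratios rescaling). Against 4.08% of all genes called lower, Ier3 was the 1 call among 15 immediate early genes tested (6.67%; -1.03) and Klf13 the 1 among 11 Kruppel-like factors (9.09%; -0.51). Of 14 proliferation genes 2 were called, both lower (14.3%), Wee1 and the cyclin gene Ccnd1 (-0.79, adjusted p = 0.00930; 0.0593 without DRF ZT0 replicate 1). The differences of the 14 ran from -1.48 to -0.08 with a median of -0.40 (-0.04 over all genes), and 6 of them (42.9%) had an unadjusted p under 0.05. The limma test called 0 of 18 heat shock chaperones, 0 of 2 cold-inducible RNA-binding protein genes, 0 of 13 NAD and sirtuin genes, 0 of 15 autophagy genes and 0 of 13 mitochondrially encoded protein genes. At an unadjusted p under 0.05 these lists held 1, 0, 6, 5 and 0 genes in that order, and limma voom called 0, 0, 1, 0 and 0. Over all genes 20.1% had such a p and voom called 1109 of 13869, while 46.2% of the NAD and sirtuin genes, 33.3% of the autophagy genes and 5.56% of the heat shock chaperones had such a p. In simulated data for this comparison the test recovered 41 of 55 genes changed 2-fold but 9 of 83 changed 1.5-fold, so the latter were detected in part. The simulation gave all genes the same fixed spread and changed few of them, so its shares need not hold for these libraries.

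Beyond the lists, the protein-coding genes with the largest differences and no overlap between groups included clock genes in both directions, 8 of the 12 that fell most and 2 of the 12 that rose most. The 8 that fell were Dbp, Ciart, Per2, Per3, Hlf, Nr1d1, Tef and Nr1d2. The other 4 that fell were Cebpb, a bZIP transcription factor gene of metabolic and inflammatory responses (11.5, 32.6, 17.1 and 30.5 TPM against 78.5, 88.6, 65.1 and 46.5 TPM, -1.63), 2210407C18Rik (4.99 to 9.60 TPM against 19.6 to 28.4 TPM, -1.63), Mthfd1l, an enzyme of mitochondrial folate metabolism (0.605 to 0.929 TPM against 3.66 to 4.73 TPM, -1.53), and the tetraspanin gene Tspan4 (25.4 to 33.9 TPM against 70.8 to 92.6 TPM, -1.52). Among the 12 that rose most, Spon2, a secreted matrix protein gene, went from 0.987, 1.77, 1.90 and 1.65 TPM in NRF ZT12 to 11.4, 13.8, 10.9 and 13.4 TPM in DRF ZT0 (2.38 ± 0.37, adjusted p = 1.83e-05). Fam124b read 3.58 to 4.32 TPM against 0.177 to 0.534 TPM (1.85) and Tmem171 4.79 to 7.59 TPM against 0.821 to 1.998 TPM (1.65). The rest of the 12 were Arntl, Npas2, Pdk4, Scd4, Acot1, Cdkn1a and Col5a3, already given, with Nppa and Fgf12.

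Nppa, itself an atrial marker, and Fgf12 were high in the libraries with high atrial marker sums. Nppa, the gene of atrial natriuretic peptide, read 1556, 2979, 2483 and 1249 TPM in DRF ZT0 against 282, 854, 167 and 159 TPM (2.78 ± 0.87, adjusted p = 0.0446). Fgf12, a fibroblast growth factor homologous gene, read 2.89, 5.66, 4.29 and 1.99 TPM against 0.539, 1.78, 0.283 and 0.199 TPM (1.49 ± 0.47, adjusted p = 0.0475). The same libraries were high for the other atrial markers. Myl7, the atrial regulatory light chain gene, read 727 to 1873 TPM against 23.4 to 563 TPM, and Sln, the sarcolipin gene, 149 to 307 TPM against 1.74 to 95.9 TPM. Bmp10, a growth factor gene of the right atrium, read 4.73 to 60.05 TPM against values up to 0.0587 TPM, with 1 NRF ZT12 library at 0. Of the 6 atrial markers 1 was called, Nppa, against 6.26% of all genes tested. The other 5 were all higher in DRF ZT0 on average without passing (adjusted p 0.103 to 0.421). Dkk3, a secreted Wnt modulator gene, was the 1 marker of the 6 with overlapping groups, while 13.5% of all genes tested had no overlap. The part of atrial tissue in other calls was not tested beyond the fit with the covariate. With the atrial covariate the difference was 0.15 for Fgf12 (adjusted p = 0.642) and 0.30 for Gja5 (0.344), while Arntl stood at 2.67 and Pdk4 at 2.45. Nppa is 1 of the 6 genes summed in that covariate, so its value in that fit is not given. The calls of Nppa and Fgf12 were also lost in 7 and 6 of the 8 fits that left out 1 library, with adjusted p up to 0.131 and 0.142, and with no filter on low values (0.0643 and 0.0673). The call of Fgf12 was lost as well with a pseudocount of 0.1 (0.0719) and by limma voom on the recovered reads (0.0577).

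**Figure D3:**
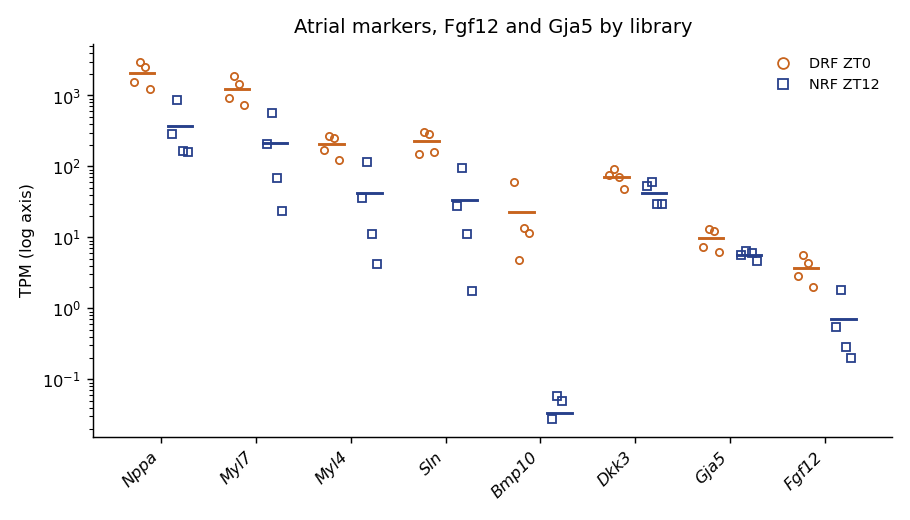
TPM of the 6 atrial markers and of Gja5 and Fgf12 in each of the 8 libraries on a log axis, with DRF ZT0 as circles, NRF ZT12 as squares and bars at the group means. Nppa, Myl7, Myl4, Sln, Bmp10 and Fgf12 are higher in all DRF ZT0 libraries. Among all genes tested 13.5% separate the groups completely, in either direction. The NRF ZT12 library at 0 for Bmp10 cannot be drawn on this axis.

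The opposite food-matched pair, NRF ZT0 against DRF ZT12, holds hearts at the end of feeding at the same 2 clock times and shares no library with the end-of-fast pair. It gave 1315 calls (9.48%), 1058 higher and 257 lower in NRF ZT0. This split also moved with the scaling, from 80.5% higher to 54.8% after median-of-ratios rescaling. The count was 689 without NRF ZT0 replicate 1, 776 without NRF ZT0 replicate 3 or DRF ZT12 replicate 3 and 848 without DRF ZT12 replicate 1. Of the 868 end-of-fast calls, 264 (30.4%) were called in the same direction at the end of feeding, which is 20.1% of the end-of-feeding calls. Of these 156 were higher and 108 lower at ZT0. A further 11 were called in opposite directions (1.27% and 0.837% of the 2 lists). Of the 10 genes with the largest differences in both pairs, 5 in each direction, 6 were clock genes. Arntl differed by 2.68 in the end-of-fast pair and 2.55 in the end-of-feeding pair, Npas2 by 1.78 and 1.83, Per2 by -2.42 and -2.52, Per3 by -2.02 and -2.08, Dbp by -3.43 and -3.60 and Tef by -1.59 and -1.75. Outside the clock lists Spon2 (2.38 and 2.73), Fam124b (1.85 and 1.76), Col5a3 (1.38 and 2.07) and Tspan4 (-1.52 and -1.56) were in the same position.

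**Figure D4:**
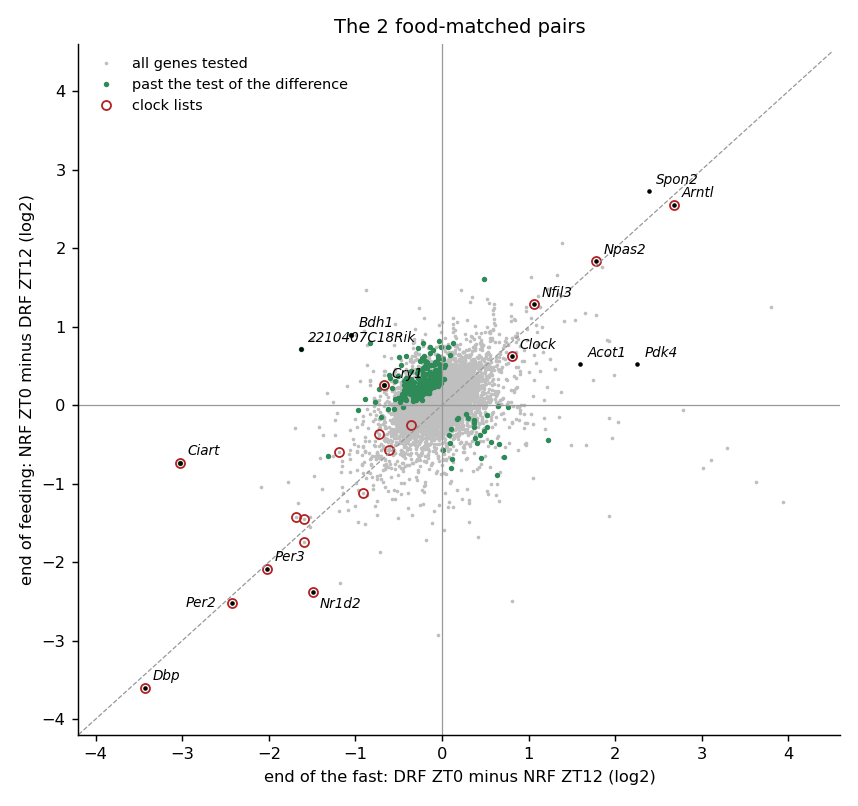
Log2 difference of each of 13869 genes at the end of the fast (horizontal axis) against the end of feeding (vertical axis), with clock genes as red circles, genes past the test of the difference between the pairs in green and the dashed line where both are equal. Most clock genes lie near the dashed line, Ciart lies far to the left of it, and Pdk4 and Acot1 lie to the right.

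Whether the ZT0 against ZT12 difference depended on the food state was tested directly as the difference between the pairs. This term equals the sum of both DRF groups minus the sum of both NRF groups, so a regimen effect common to both times cannot be told apart from it. It was past the threshold for 281 genes (2.03%; 2773 at an unadjusted p under 0.05), 27 above and 254 below 0, on a background in which the median of all genes was -0.11. The count was far from stable, at 230 with 38.3% above 0 after median-of-ratios rescaling, 78 with TPM over nuclear genes, 15 in a fit of the 16 libraries alone and 641 with DRF ZT24 in place of DRF ZT0. Leaving out 1 library gave from 45 (without DRF ZT12 replicate 3) to 767 (without DRF ZT12 replicate 4), so single genes are given with the number of alternatives that they passed. Of the clock genes 2 were past it. Ciart differed by -3.03 in the end-of-fast pair and by -0.73 in the end-of-feeding pair (difference -2.29 ± 0.50, adjusted p = 0.0138), and Cry1 by -0.67 and 0.25 (-0.92 ± 0.22, adjusted p = 0.0247). Ciart stayed past the threshold in 25 of 25 alternatives, and Cry1 in 17 of 26 (adjusted p 0.00885 to 0.0898).

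Of the 5 largest differences between the pairs among end-of-fast calls that were also past the test of the difference, Ciart was 1. The uncharacterised gene 2210407C18Rik was lower on average in the DRF group of each pair, at -1.63 in the end-of-fast pair against 0.71 in the end-of-feeding pair (-2.35 ± 0.41, adjusted p = 0.00257, past in 26 of 26 alternatives). Its end-of-feeding difference alone was not called by limma (adjusted p = 0.112). Bdh1 turned from -1.05 to 0.90 (-1.95 ± 0.38, adjusted p = 0.00575, past in 25 of 26), which again is a lower level in the DRF group of each pair. The noncoding gene Gm19277 turned from 0.71 to -0.66 (1.37 ± 0.31, adjusted p = 0.0168, past in 22 of 26). The end-of-fast call of Gm19277 itself (adjusted p = 0.0399) was lost without DRF ZT0 replicate 1, 2 or 3 or NRF ZT12 replicate 1, 2 or 3 (0.0552 to 0.163), with a pseudocount of 0.1 (0.0557), with no filter (0.0584) and with the atrial covariate (0.0917). Ramp1, which encodes a partner protein of the calcitonin receptor family, read 12.4, 16.2, 15.9 and 12.5 TPM in DRF ZT0 against 8.01, 10.3, 7.82 and 8.63 TPM in NRF ZT12, groups that do not overlap (0.65 ± 0.12, adjusted p = 0.000307). It turned to -0.49 in the end-of-feeding pair, a higher level in the DRF group of each pair (difference 1.14 ± 0.17, adjusted p = 0.000473, past in 26 of 26). With DRF ZT24 in place of DRF ZT0, the Ramp1 end-of-fast difference was 0.08 (adjusted p = 0.736), and the difference between the pairs, run so after seeing the data, was 0.57 (adjusted p = 0.0447). DRF ZT24 itself was lower than DRF ZT0 for Ramp1 (-0.57, adjusted p = 0.0177). Oxct1 (-0.40 and 0.27) was past the threshold in 26 of 26 alternatives, and Hk2 (-0.44 and 0.31) and Slc6a6 (-0.58 and 0.22) in 25 of 26. With DRF ZT24 the difference between the pairs missed it for Hk2 (-0.42, adjusted p = 0.0714) and Gm19277 (0.87, adjusted p = 0.0861). Steap3 was past it in 15 of 26. For Pdk4 (2.25 and 0.52) and Acot1 (1.59 and 0.52) the difference between the pairs missed the threshold (adjusted p = 0.129 and 0.108).

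Averaged over both food states, ZT0 differed from ZT12 in 1486 genes (10.7%), 892 of them higher at ZT0. Averaged over both times, the end of the fast differed from the end of feeding in 2017 genes (14.5%), 1088 of them higher at the end of the fast. Apart from its scale, the food state average is the same quantity as the difference between DRF and NRF in their ZT0 against ZT12 contrast, so the 2 readings cannot be told apart. Of the 18 clock genes 17 were called for time, all but Cry1, and 14 for food state, 10 higher and 4 lower at the end of the fast. Arntl was at 2.62 ± 0.16 for time and -0.77 ± 0.16 for food state, and Dbp at -3.51 ± 0.30 and 1.36 ± 0.30. Pdk4 was called for time (1.39, adjusted p = 0.00249) and not for food state (0.69, adjusted p = 0.151), and Acot1 for both (1.06 and 0.72). Tcap was lower at ZT0 (-0.91) and higher at the end of the fast (1.14).

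The same groups can be set beside their other neighbours. At ZT0 itself DRF hearts, unfed, and NRF hearts, just fed, differed in 1568 genes (11.3%), and within NRF 2353 genes (17.0%) differed between ZT0 and ZT12. These share libraries with the end-of-fast pair and are given side by side only. Arntl was lower in DRF ZT0 than in NRF ZT0 (-0.71), Dbp was higher (1.44), and Per2 (0.36) was not called. Pdk4 (1.55) and Acot1 (1.26) were higher in DRF ZT0 than in NRF ZT0 as well. DRF ZT24, the same clock hour taken at the end of the sampled day, differed from DRF ZT0 in 65 genes by limma (0.469%; 1699 at an unadjusted p under 0.05). Set against NRF ZT12 it gave 1928 calls (13.9%), 443 higher and 1485 lower. All 17 clock genes called at DRF ZT0 except Rora were called with DRF ZT24 too, and Per1 was called there (-1.85, adjusted p = 0.000323). Scd4, Hk2, Bdh1, Oxct1, Nppa, Fgf12, Gja5, Gja1, Slc40a1, Dnajb9, Gm19277 and Ramp1 were not (adjusted p 0.0517 to 0.736).

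**Figure D5:**
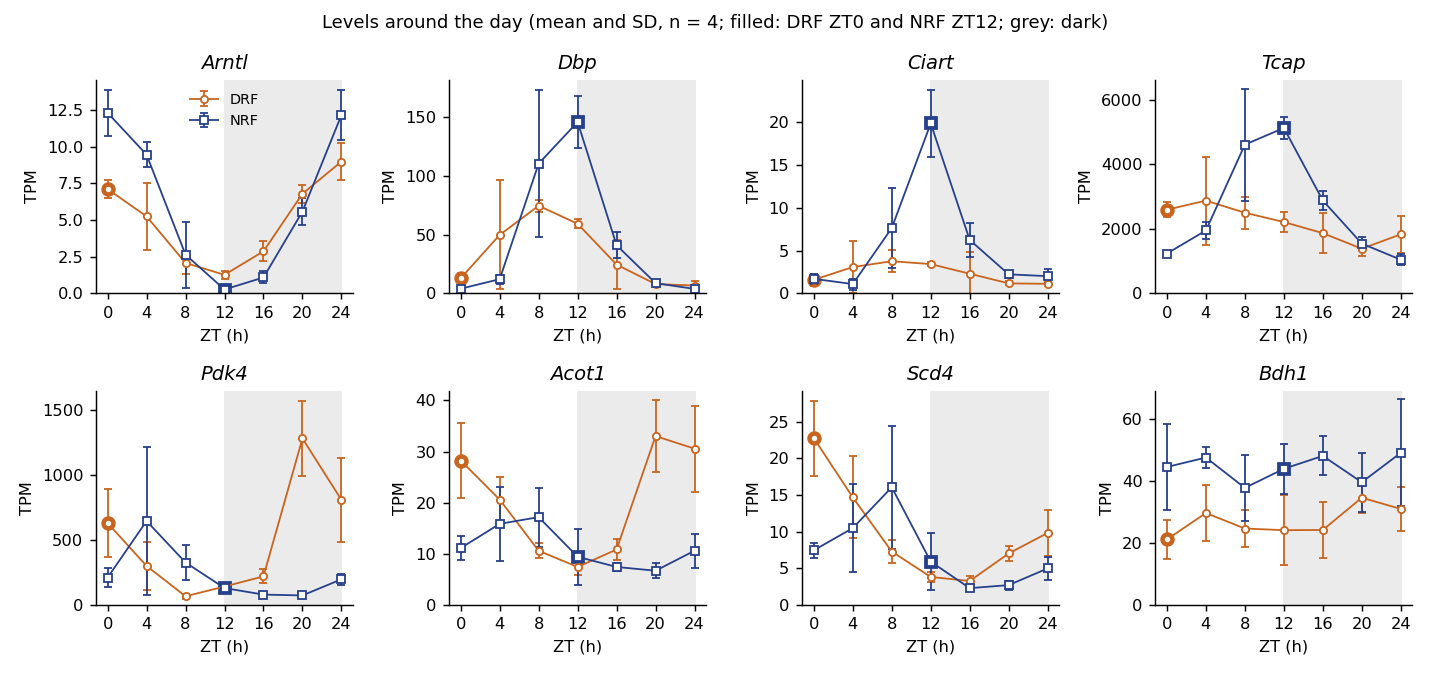
Mean TPM with SD (n = 4) of 8 genes at 7 zeitgeber times under DRF (circles) and NRF (squares), with DRF ZT0 and NRF ZT12 filled and the dark phase in grey. NRF ZT12 is the trough of Arntl and the peak of Dbp, Ciart and Tcap, and DRF ZT0 lies on the high side of Pdk4 and Acot1, at the highest mean of Scd4 and at the lowest mean of Bdh1.

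The levels around the day place both groups within their own regimens. Arntl fell from 12.3 ± 1.56 TPM at NRF ZT0 to 0.268 ± 0.147 TPM at NRF ZT12, and under DRF from 7.10 ± 0.63 TPM at ZT0 to 1.27 ± 0.28 TPM at ZT12 (SD, n = 4 each). Dbp peaked at 146 ± 21.7 TPM in NRF ZT12 and at 74.6 ± 5.196 TPM in DRF ZT8, and DRF ZT0 (12.9 ± 4.19 TPM) was within the spread of NRF ZT4 (12.1 ± 3.85 TPM). Ciart reached 19.8 ± 3.90 TPM in NRF ZT12, whereas under DRF its highest mean was 3.76 ± 1.29 TPM at ZT8. Pdk4 was at 1279 ± 288 TPM in DRF ZT20, 807 ± 325 TPM in DRF ZT24 and 629 ± 263 TPM in DRF ZT0, groups whose spreads overlap in part. Under NRF it was highest at ZT4 (644 ± 566 TPM), early in the fast, and was 129 ± 41.5 TPM at ZT12, when the fast ended. Acot1 was likewise between 28.2 and 33.0 TPM in DRF ZT20, ZT24 and ZT0, and its highest NRF mean was 17.2 ± 5.76 TPM at ZT8. Bdh1 means ran from 21.1 to 34.6 TPM under DRF and from 37.8 to 49.1 TPM under NRF, so every DRF group mean was under every NRF group mean.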

How the data were processed

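Heart polyA RNA was sequenced by the authors (paired-end, 56 libraries), with HISAT2 2.0.5, featureCounts 1.5.0-p3 and mm10 named in the submitters' processing notes. The use of strand in counting is not given in the sources used here, so reads of exons that overlap a gene on the other strand cannot be told apart. Beside Nr1d1 and Dbp, such an overlap was found for Arntl, Cry2, Bhlhe40, Bhlhe41, Tef, Rora, Pik3ip1, Cdkn1a, Dnajb9, Gja5 and Kcnk3. It was also found for Pde3a, Lox, Bdh1, Slc6a6, Oxct1, Ccnd1, Cebpb, Tspan4 and Nppa. The deposited values are named TPM, but they follow a log2 transform of read counts divided by exon length, so they are not linear TPM. The unit was therefore taken as a log2-type value of the authors, and whole reads were recovered with GENCODE M21 exon lengths: 99.9986% of 1197748 values lay within 0.1 read of a whole number. Of 22864 genes, 833 needed a searched length, and 17 too abundant to test kept the annotated one. Linear TPM was recomputed from these reads. The test had been laid down for TPM and was kept. No 2 libraries were identical.

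The 13869 genes that averaged 1 TPM or more across the series were fitted with limma 3.58.1 (R 4.3.3) on log2(TPM + 1) with 14 group means and a trended variance, and called at a Benjamini-Hochberg adjusted p under 0.05. Single library measures were compared with exact permutation tests (scipy 1.17.1, two-sided). On simulated data for DRF ZT0 against NRF ZT12 (13869 genes), 62 of 62 genes changed 4-fold, 41 of 55 changed 2-fold and 9 of 83 changed 1.5-fold were recovered, with 7 false calls. Reads were drawn around each gene's series mean with the same fixed spread for all genes (negative binomial), and few genes were changed. Depth was 29.5 to 42.4 M (1e6) recovered reads in the 8 libraries.

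The gene lists and the members named were chosen with earlier results of these data known. The genes named are all clock genes and up to 3 called genes per other list. They also include the 12 largest rises and 12 largest falls among protein-coding calls without overlap. Further ones are the 5 largest differences between the pairs among calls also past the test of the difference. Last come the 5 genes in each direction largest in both pairs. Mlycd, Cd36, Angptl4, Acadl, Hadha, Hadhb, Tsc22d3, Fkbp5, Col1a1, Col3a1, Cd68, Kdr and the atrial markers other than Nppa were added after their values were seen. Alternatives were other scalings, pseudocounts, filters, sample sets and models, the replicate block, leaving out each replicate, and, added after seeing the data, the atrial covariate and DRF ZT24 in the test of the difference. Some genes are not reported here, and the lists and rules were applied without them.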

Additional observations from a re-analysis of the deposited data

Results flagged for a closer look

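Among 156 groups of 4 libraries tested for a library far from the others, 6 had one, and chance alone sets about 1 in 20 groups apart in this way. In NRF ZT12, Npas2 read 0.549 TPM in replicate 4 against 0.654 to 0.674 TPM in the others, Per1 read 49.8 TPM in replicate 3 against 41.9 to 43.0 TPM, and Gm19277 read 7.65 TPM in replicate 1 against 11.4 to 11.8 TPM. In DRF ZT0, Herpud1 read 122 TPM in replicate 4 against 149 to 151 TPM. Brown fat markers summed to 72.1 TPM in NRF ZT12 replicate 1 against 38.7 to 42.1 TPM. Red blood cell markers summed to 42657 TPM in NRF ZT12 replicate 4 against 2186 to 3645 TPM, the widest of these gaps.

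For 10 named genes the end-of-fast and end-of-feeding differences were themselves apart by limma's test of the difference. Those below 0 were 2210407C18Rik (-2.35; adjusted p = 0.00257), Ciart (-2.29; 0.0138), Bdh1 (-1.95; 0.00575), Cry1 (-0.92; 0.0247), Slc6a6 (-0.80; 0.00837), Hk2 (-0.75; 0.00383), Oxct1 (-0.67; 0.00257) and Steap3 (-0.52; 0.0296). Those above 0 were Gm19277 (1.37; 0.0168) and Ramp1 (1.14; 0.000473).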

How the results depend on the processing

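None of the 61 genes named by rule changed sign under any alternative run. Of the atrial markers named beside them, Myl7 (-0.43), Myl4 (-0.30), Sln (-0.34) and Dkk3 (-0.55) turned negative with the atrial covariate, in which they are summed. Of 60 named genes called, 41 were called under every alternative other than the atrial covariate, 15 lost the call without 1 library and 18 under another choice. Of the 17 clock genes called, Bhlhe40 and Rora were the 2 that lost it, and Per1 gained one in the fit of the 8 libraries and with DRF ZT24. The 868 end-of-fast calls became 374 at an adjusted p limit of 0.01 and 1928 with DRF ZT24 in place of DRF ZT0, and ranged from 523 to 995 when 1 library was left out. The 1315 end-of-feeding calls became 719 with NRF ZT24 in place of NRF ZT0 and ranged from 689 to 1658 when 1 library was left out. The 281 genes past the test of the difference became 78 with TPM over nuclear genes, 120 with no filter on low values, 15 with the 16 libraries alone, 134 with NRF ZT24, 641 with DRF ZT24 (chosen after seeing the data) and 140 with the atrial covariate, and ranged from 45 to 767 when 1 library was left out. Lower counts came without DRF ZT0 replicate 1 (102) or 4 (71), DRF ZT12 replicate 1 (105), 2 (166) or 3 (45), NRF ZT0 replicate 1 (54) or 3 (62) and NRF ZT12 replicate 1 (76) or 3 (59), and higher ones without DRF ZT12 replicate 4 (767) or NRF ZT0 replicate 2 (484). The cause was not tested. With the replicate block 880, 1315 and 234 genes were called in the 3 tests, and of the named genes Col8a1 lost its call (adjusted p = 0.0556). Same-numbered libraries did not deviate together (correlations -0.0437 to -0.0049) and no library correlated best with its own number, so the numbers were not taken as pairs. In simulated data with the same fixed spread for all genes, 9 of 83 changes of 1.5-fold were recovered, so they were detected in part there. That share need not hold for these libraries.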

Other observations

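Calls between DRF ZT0 and NRF ZT12 were also counted by gene class, against 2.18% of all genes called higher and 4.08% called lower. Protein-coding genes gave 231 rises (1.91%) and 521 falls (4.31%) among 12081 tested. Pseudogenes gave 33 rises (4.35%) and 19 falls (2.51%) among 758, and other noncoding genes 29 rises (3.52%) and 19 falls (2.30%) among 825. No test of the difference between classes was run, and over all genes the share of calls that were higher moved from 34.8% to 47.2% after median-of-ratios rescaling. Small structural RNAs gave 6 rises (3.26%) and 0 falls among 184, and the share that rose was near that of all genes. Chosen after their values were seen, 2 of the 6 were Rn7sk, the 7SK RNA that restrains transcription elongation, at 3.80 (adjusted p = 0.00809) and Scarna2, a guide RNA of Cajal bodies, at 1.53 (adjusted p = 0.00414). Most of these RNAs carry no polyA tail, and polyA RNA was sequenced.

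The mitochondrial tRNA and rRNA genes gave 3 rises (14.3%, against 2.18% of all genes) and 7 falls (33.3%, against 4.08%) among 21, with a median of -0.62 (-0.04 over all genes), while none of the 13 mitochondrially encoded protein genes was called by limma and 0 had an unadjusted p under 0.05. Both rRNAs rose (mt-Rnr1 0.84, adjusted p = 0.00202, and mt-Rnr2 0.65, adjusted p = 0.0174), with mt-Tn (0.51, adjusted p = 0.0406) as the third rise. The largest called falls were mt-Tm at -1.23 (adjusted p = 0.0164), mt-Ti at -0.97 (adjusted p = 0.0476) and mt-Tg at -0.92 (adjusted p = 0.0133). These short genes lie end to end with the protein-coding genes, and the use of strand in counting is not stated, so reads shared with a neighbour cannot be told apart. These genes were chosen after their values were seen.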
